A study of Homo sapiens with 12 samples.

Results

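The Krüppel-like factors (KLFs) are transcription factors whose C-terminal zinc fingers bind GC-rich and CACCC-type sequences in promoters and enhancers. The expression of 10 KLF genes (KLF2, KLF3, KLF4, KLF5, KLF6, KLF7, KLF9, KLF10, KLF11 and KLF13) was examined in 2 human lung cancer cell lines treated with siRNA against NGFR. The genes were chosen by symbol from a table of 64253 genes, and where a symbol was repeated (KLF13) the row on a primary chromosome with the highest total count was used. KLF2, KLF4, KLF5, KLF6 and KLF7 act mainly as transcriptional activators, although KLF4 can also repress. KLF3 represses through the co-repressor CtBP, and KLF9, KLF10, KLF11 and KLF13 share a domain that recruits the co-repressor Sin3A. In epithelia, KLF4 is known for cell cycle arrest and differentiation and KLF5 for proliferation, and in the lung KLF2 and KLF5 are needed for normal development.

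H460 and H1299 are established lines from human non-small-cell lung tumors. H460 carries wild-type p53, and the series describes H1299 as lacking p53. Cells of both lines were transfected with control siRNA (siCont) or with siRNA against the neurotrophin receptor gene NGFR (siNGFR). All cells were grown in the same serum-containing medium, and no other agent was named for the sequenced cells. Total RNA depleted of ribosomal RNA was sequenced on the Ion Torrent platform, with 3 biological replicates in each of the 4 groups and 12 libraries in all. In H1299 the titles of the siNGFR samples include an unexplained 3 after the knockdown, and in H460 they do not, so whether both lines received the same siRNA against NGFR is not stated. The deposited columns number the libraries 4, 5 and 6 in H460 and 1, 2 and 3 in H1299. Each p53 status was represented by a single line, so p53 and every other difference between the lines cannot be told apart.

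The libraries held 16672164 to 36116823 counts. NGFR had 2, 3 and 1 counts in H460 siCont and 0, 3 and 1 in H460 siNGFR, and 1, 6 and 1 in H1299 siCont and 1, 0 and 1 in H1299 siNGFR, too few to measure the knockdown or to check the labels. On the first principal component of the H1299 libraries (71.4% of the variance), siNGFR replicate 3 lay at -15.4, near the siCont libraries (-18.8, -41.3 and -28.1) and far from siNGFR replicates 1 and 2 (48.3 and 55.4). The calls of the KLF genes and of the lists that include this library are therefore given with and without it, an alternative added for the lists after seeing the data. The epithelial keratin genes KRT8 and KRT18 and the mesenchymal gene VIM were abundant in both lines. The epithelial keratin gene KRT19 had 3676 to 4545 counts in H460 siCont and 4074 to 4528 in H460 siNGFR. In H1299, KRT19 had at most 2 counts per library. The epithelial genes EPCAM and CDH1 had at most 6 counts per library in both lines, and the lung lineage genes NKX2-1, SFTPC and SCGB1A1 at most 5. The share of counts from short genes (exons summing to less than 400 bases) was 43.1% to 48.2% in H460 siCont and 50.5% to 55.6% in H460 siNGFR, and 48.7% to 53.7% in H1299 siCont and 41.7% to 50.6% in H1299 siNGFR. Scaling by library size alone, in place of TMM (trimmed mean of M-values), gave the median gene of H460 a log2 fold change of -0.32. Markers of other cells (9 genes of leukocytes, endothelium and fibroblasts) summed to 11.7 to 15.3 CPM (counts relative to the library total, scaled by TMM) in H460 siCont and 8.46 to 10.1 CPM in H460 siNGFR, and to 9.94 to 16.3 CPM and 6.01 to 11.6 CPM in the H1299 groups, with CD68 highest on average in each group. The leukocyte genes PTPRC and CD3E and the endothelial gene CDH5 had at most 3 counts in any library, DCN at most 6, PECAM1 at most 8 and VWF at most 10. The fibroblast genes PDGFRB and COL1A1 had 93 to 119 and 56 to 71 counts in H460 siCont, 54 to 86 and 33 to 42 in H460 siNGFR, and at most 10 and 21 in H1299. Their part in the results was not tested.

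Windows of 250 bases upstream of a RefSeq transcription start (GRCh38.p14) were at hand for 8 of the 10 genes, 13 windows in all, with a GC content of 32.4% to 80.0%. They were searched on both strands for 2 motifs known to be bound by KLF and SP proteins, the CACCC-type motif CCACNCCC and the GC box CCGCCC. The GC box was found in 8 of the 13 windows against 42.6% of all 35116 windows of this length. CCACNCCC was found in 3 of the 13 (KLF6, KLF7 and KLF13) against 15.7%. Counting a gene if any of its windows matched, 7 of 8 genes held a GC box, which has no share of all windows to compare with. Some windows overlap annotated exons, most of all the KLF7 window with the CCACNCCC match (238 of 250 bases). The windows of KLF4 and KLF13 are shown because these were the most abundant of the 10 transcripts in H460 and differed most between the lines together with KLF5. The KLF4 window (chr9:107489770-107490019, minus strand) lies within the gene as annotated by GENCODE but in no annotated exon, and the KLF13 window (chr15:31326585-31326834, plus strand) lies just upstream of the gene. Capitals mark every motif match, written 5′ to 3′ on the strand of the gene, so that GC boxes on the other strand read GGGCGG.
KLF4: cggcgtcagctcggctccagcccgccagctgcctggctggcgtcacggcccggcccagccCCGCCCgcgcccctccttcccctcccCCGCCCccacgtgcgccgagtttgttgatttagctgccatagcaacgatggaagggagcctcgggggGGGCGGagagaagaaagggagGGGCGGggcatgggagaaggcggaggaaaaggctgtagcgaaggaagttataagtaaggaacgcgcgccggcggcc
KLF13: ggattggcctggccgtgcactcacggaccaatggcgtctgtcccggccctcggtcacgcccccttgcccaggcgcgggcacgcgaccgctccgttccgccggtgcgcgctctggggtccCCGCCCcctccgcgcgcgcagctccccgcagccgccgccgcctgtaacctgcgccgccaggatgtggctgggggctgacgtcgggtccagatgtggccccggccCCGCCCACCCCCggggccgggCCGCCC
The KLF4 window held 4 GC boxes, and the KLF13 window held 3 GC boxes and 1 CCACNCCC match, which shares bases with the second GC box.

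The order of the 10 transcripts differed between the lines. Levels of different genes were compared as CPM per kilobase of exon, and the order in each group is shown in the plot of levels per exon length. In H460 siCont, KLF4 was the most abundant with 5.97 ± 0.50 CPM per kilobase (SD, n = 3), followed by KLF13 with 4.81 ± 0.44 and KLF10 with 3.57 ± 0.28. The libraries of these 3 neighbours did not overlap. KLF2 (2.34 ± 0.66) and KLF6 (2.09 ± 0.10) came next with overlapping libraries, then KLF3 (1.49 ± 0.11) and KLF5 (1.38 ± 0.03), which also overlapped, then KLF11 (0.724 ± 0.15). KLF9 (0.472 ± 0.045 CPM per kilobase) and KLF7 (0.470 ± 0.063 CPM per kilobase) were lowest and overlapped.

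In H1299 siCont, KLF6 (3.41 ± 0.32 CPM per kilobase, SD, n = 3) and KLF10 (3.24 ± 0.46) were the most abundant and overlapped, and KLF3 followed (2.47 ± 0.18). KLF11, KLF4, KLF7, KLF2 and KLF13 lay between 1.67 and 1.14 CPM per kilobase, and each of these neighbours overlapped the next. KLF9 (0.784 ± 0.021) and KLF5 (0.336 ± 0.019) were lowest and did not overlap. KLF4 thus stood at rank 1 in H460 and at rank 5 in H1299, and KLF13 at rank 2 and rank 8. Summed over the 10 genes, the level was 116 to 132 CPM per library in H460 siCont and 125 to 133 CPM in H460 siNGFR, and 88.8 to 97.9 CPM in H1299 siCont and 90.9 to 101 CPM in H1299 siNGFR.

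**Figure D1:**
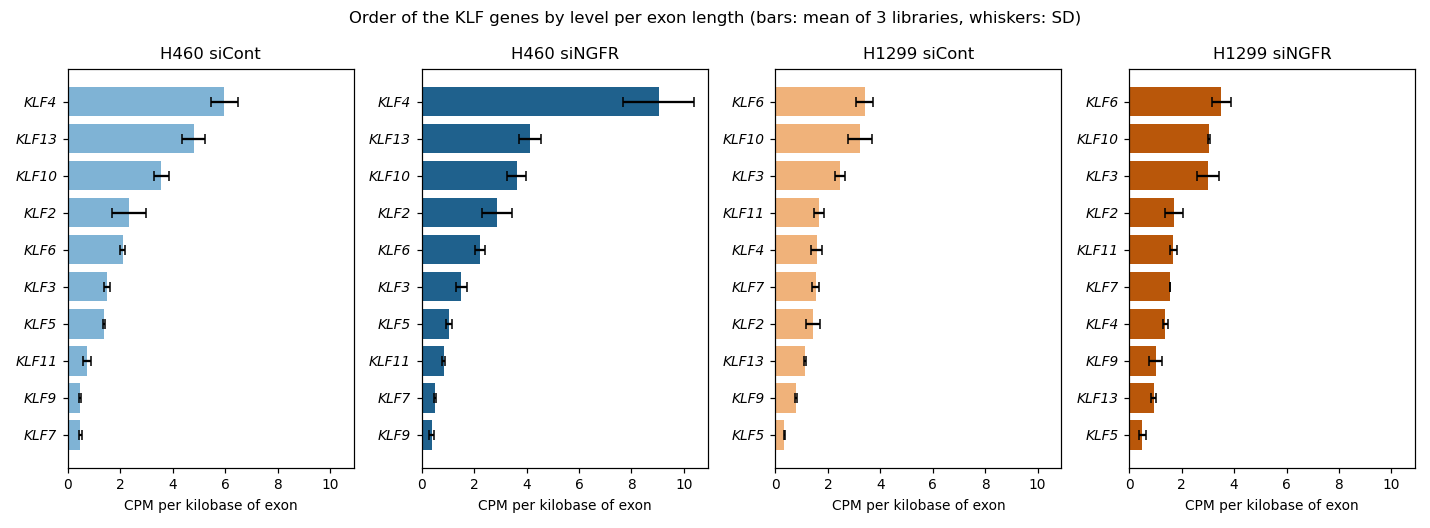
Level of each KLF gene in CPM per kilobase of exon (horizontal axis, starting at 0), with genes sorted from highest to lowest in each of the 4 groups; bars are means of 3 libraries and whiskers are SD. KLF4 leads in H460, at 5.97 CPM per kilobase in siCont and 9.04 in siNGFR, while KLF6 leads in H1299, at 3.41 and 3.51.

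The siCont libraries of both lines were compared to ask which KLF genes differed at baseline. Of the 10 genes, 4 were higher in H460 and 5 were lower (edgeR's quasi-likelihood test, Benjamini-Hochberg adjusted p under 0.05). Of all 20105 genes tested, 63.2% were called, 31.9% higher and 31.3% lower, and the siCont groups did not overlap in 67.3%, so most genes differed between these lines and 9 of 10 is read against that share. The median log2 difference was -0.29 for the 10 KLF genes and -0.02 for all genes.

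Among the activators, KLF4, on chromosome 9 (chr9:107484852-107490482, GRCh38, minus strand), had 22.8, 19.7 and 19.9 CPM in H460 siCont and 5.10, 6.32 and 5.03 CPM in H1299 siCont. Every H460 library was above every H1299 library, and the log2 difference was 1.91 (SE 0.14, adjusted p = 1.56e-08, edgeR), or 3.76-fold. KLF5 (chr13:73054976-73077542, plus strand) had 5.41, 5.25 and 5.47 CPM in H460 siCont and 1.30, 1.24 and 1.39 CPM in H1299 siCont, again without overlap, a log2 difference of 2.03 (SE 0.19, adjusted p = 4.32e-07). KLF2 (chr19:16324817-16327874, plus strand), an endothelial and T cell quiescence factor, had 6.24, 4.16 and 3.76 CPM in H460 siCont and 2.29, 3.03 and 3.29 CPM in H1299 siCont. The groups did not overlap, but the log2 difference of 0.71 (SE 0.23, adjusted p = 0.0145) rested on single libraries, since it was 0.48 (adjusted p = 0.0739) without H460 siCont library 4 and 0.54 (adjusted p = 0.0755) without H1299 siCont replicate 1, within a range of adjusted p from 0.000198 to 0.0755 over 13 alternatives.

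KLF6 and KLF7 went the other way. KLF6 (chr10:3775996-3785281, minus strand), a growth suppressor in several tissues, had 12.6, 12.8 and 11.7 CPM in H460 siCont and 21.3, 18 and 21.3 CPM in H1299 siCont. The log2 difference was -0.72 (SE 0.12, adjusted p = 8.39e-05, edgeR), with no overlap. KLF7 (chr2:207074137-207167267, minus strand), which is best known from neurons, had 4.48, 3.60 and 4.65 CPM in H460 siCont and 14.5, 12.4 and 14.5 CPM in H1299 siCont. It was 3.28-fold lower in H460, the largest deficit of the 10 genes under TMM scaling (log2 difference -1.71, SE 0.15, adjusted p = 1.36e-07).

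The CtBP-binding repressor KLF3 (chr4:38664196-38701042, plus strand) had 9.98, 8.64 and 9.46 CPM in H460 siCont and 16.6, 15.6 and 14.4 CPM in H1299 siCont, without overlap (log2 difference -0.74, SE 0.12, adjusted p = 9.17e-05, edgeR). The genes of the Sin3A-binding group did not share a direction. KLF13 (chr15:31326855-31435665, plus strand), which regulates the chemokine gene CCL5 in T cells, had 49.99, 42.5 and 43.2 CPM in H460 siCont and 10.8, 10.4 and 10.9 CPM in H1299 siCont. This was the largest surplus in H460, 4.20-fold (log2 difference 2.07, SE 0.11, adjusted p = 9.54e-10). KLF11 (chr2:10042849-10054836, plus strand), induced by TGF-beta, had 4.07, 3.14 and 2.77 CPM in H460 siCont and 8.25, 6.65 and 8.03 CPM in H1299 siCont (log2 difference -1.22, SE 0.18, adjusted p = 3.20e-05). KLF9 (chr9:70384597-70414624, minus strand), a target of glucocorticoid and thyroid hormone receptors, had 2.49, 2.64 and 2.19 CPM in H460 siCont and 4.06, 3.95 and 4.16 CPM in H1299 siCont. Its log2 difference of -0.74 (SE 0.19, adjusted p = 0.00303) was -0.47 (adjusted p = 0.0678) with library size as the only scaling, the highest adjusted p of 13 alternatives that started at 0.00141.

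KLF10 (chr8:102648779-102655902, minus strand), an early TGF-beta response gene, was the only one of the 10 that was not called. It had 14.3, 15.4 and 13.2 CPM in H460 siCont and 12.7, 11.2 and 14.9 CPM in H1299 siCont, and the groups overlapped. The log2 difference was 0.13 with a 95% confidence interval of -0.15 to 0.41, and it was called with library size as the only scaling (0.40, adjusted p = 0.0281), the lowest of adjusted p values that reached 0.960. In the siNGFR libraries of both lines, a comparison added after seeing the data in which 56.1% of all genes were called, the same 9 KLF genes were called in the same directions, with log2 differences of 2.67 for KLF4, 2.08 for KLF13, 1.03 for KLF5 and -1.64 for KLF7, and KLF10 was at 0.21 (adjusted p = 0.212). Without H1299 siNGFR replicate 3, where 64.4% of all genes were called, the same 9 KLF genes were called in the same directions, KLF5 was at 0.79, KLF9 at -1.68 (-1.46 with all libraries) and KLF10 at 0.19 (adjusted p = 0.240).

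**Figure D2:**
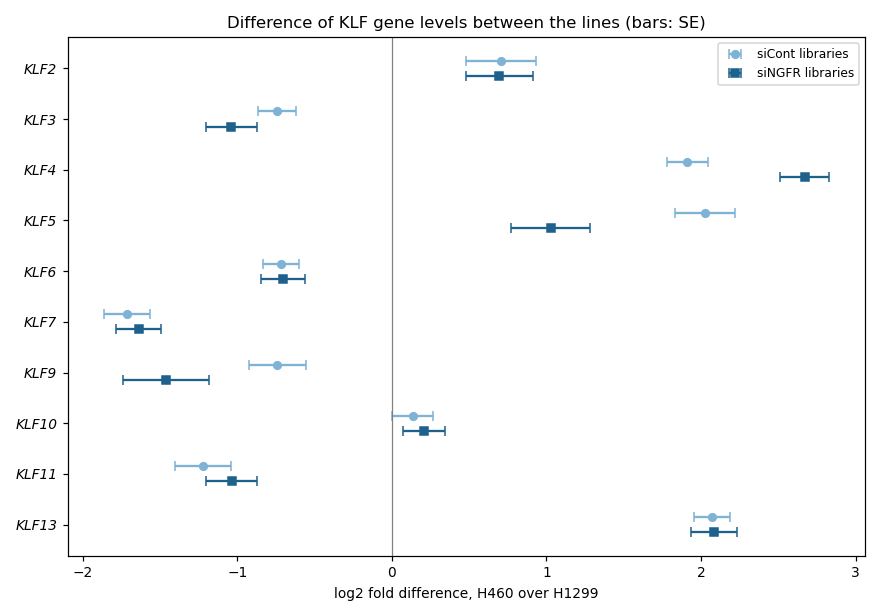
Log2 fold difference of H460 over H1299 for each KLF gene (horizontal axis) in the siCont libraries (circles) and in the siNGFR libraries (squares), 3 libraries per group; bars are SE of the edgeR estimate. KLF4, KLF5, KLF13 and KLF2 lie right of 0 and KLF3, KLF6, KLF7, KLF9 and KLF11 left of 0 in both, and KLF5 is at 2.03 in siCont and 1.03 in siNGFR.

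In H460 cells, the comparison of siNGFR with siCont asked which KLF genes changed with NGFR siRNA where p53 is wild-type. KLF4 rose and none of the other 9 passed the test. Over all 19837 genes tested 4.32% were called, 1.81% as higher, so 1 higher gene of 10 stands against that share. Of the 10 log2 fold changes 7 were above 0 and 3 below, with a median of 0.08, beside 0.01 over all genes. At an unadjusted p under 0.05 there were 2 KLF genes, against 19.2% of all genes, and the groups did not overlap for 3 (KLF4, KLF5 and KLF13), against 23.7% of all genes.

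KLF4 had 22.8, 19.7 and 19.9 CPM in H460 siCont libraries 4, 5 and 6 and 30.3, 27.5 and 36.6 CPM in siNGFR libraries 4, 5 and 6. Every siNGFR library was above every siCont library, with the highest value in siNGFR library 6. The rise was 1.53-fold (log2 fold change 0.62, SE 0.13, 95% confidence interval 0.34 to 0.89, adjusted p = 0.0165, edgeR), and it ranked 358 of the 19837 genes by p. The call depended on single control libraries and on the scaling, with an adjusted p of 0.108 without siCont library 5, 0.0569 without siCont library 6 and 0.169 with library size as the only scaling (log2 fold change 0.29, where the median of all genes was -0.32). It was kept under 11 of 14 alternatives, over which the adjusted p ran from 0.000655 to 0.169.

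KLF5, which opposes KLF4 at many shared targets, had 5.41, 5.25 and 5.47 CPM in H460 siCont and 4.60, 3.93 and 3.67 CPM in H460 siNGFR. All siNGFR libraries were below all siCont libraries, but the log2 fold change of -0.39 (95% confidence interval -0.73 to -0.05, unadjusted p = 0.0279) did not pass after adjustment (adjusted p = 0.192, edgeR). It was -0.71 when only library size was used for scaling (adjusted p = 0.0121, the lowest of 14 alternatives that ran up to 0.450). KLF13 had 49.99, 42.5 and 43.2 CPM in siCont and 34.5, 41.7 and 40.7 CPM in siNGFR. Its groups lay next to each other without overlap, and the log2 fold change of -0.20 (95% confidence interval -0.45 to 0.05, adjusted p = 0.390) passed with library size as the only scaling (-0.53, adjusted p = 0.0112, with 0.663 the highest of the alternatives).

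For the other 7 genes the H460 groups overlapped. Among the activators, KLF2 had a log2 fold change of 0.32 (95% confidence interval -0.13 to 0.77), with 6.96, 4.64 and 5.75 CPM in siNGFR around siCont library 4 at 6.24 CPM. KLF6 (0.12, interval -0.13 to 0.36) and KLF7 (0.14, interval -0.23 to 0.51) had intervals that reached from a small fall to a small rise. KLF3, the CtBP-binding repressor, was at 0.04 (interval -0.25 to 0.34). Of the Sin3A-binding group, KLF10 was at 0.04 (interval -0.22 to 0.30) and KLF11 at 0.26 (interval -0.15 to 0.66). KLF9 had 2.49, 2.64 and 2.19 CPM in siCont and 2.35, 2.13 and 1.38 CPM in siNGFR, where only library 6 stood well below siCont, and its log2 fold change was -0.31 (interval -0.81 to 0.20). These intervals leave room for changes of about the size seen for KLF4 in KLF2, KLF9 and KLF11.

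**Figure D3:**
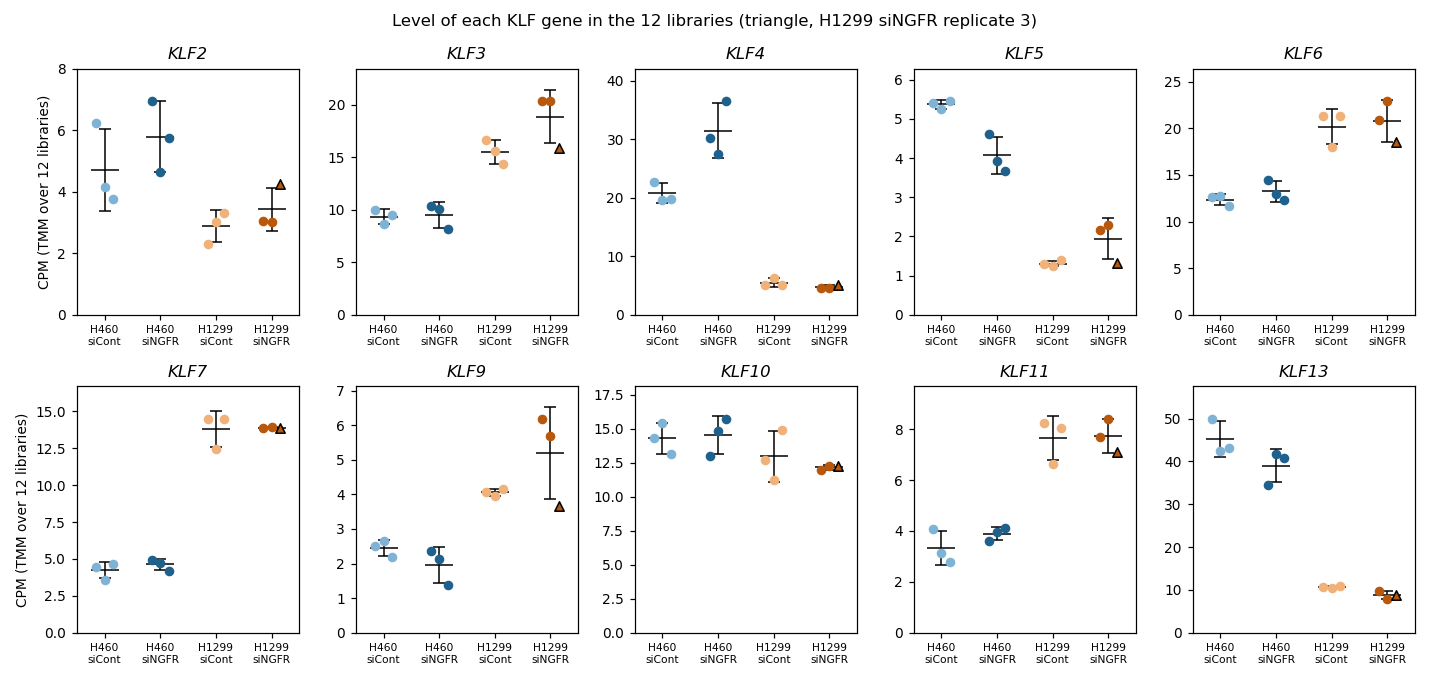
Level of each KLF gene in CPM (vertical axes start at 0, a scale for each gene) in the 3 libraries of each group, with the mean (long bar) and SD (whiskers); the triangle is H1299 siNGFR replicate 3. KLF4 in H460 goes from 19.7 to 22.8 CPM in siCont to 27.5 to 36.6 CPM in siNGFR, and for KLF3, KLF5 and KLF9 in H1299 the triangle lies apart from the other siNGFR libraries, toward the siCont libraries.

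In H1299 cells, the same comparison asked how the KLF genes behaved where p53 is described as absent. None of the 10 passed edgeR's test (0 also at an unadjusted p under 0.05, and 0 by DESeq2), in a comparison in which 4 of 18925 genes, 0.0211%, were called and 18% had an unadjusted p under 0.05. The groups did not overlap for 1 KLF gene, against 20.8% of all genes. This was KLF13, with 10.8, 10.4 and 10.9 CPM in siCont and 9.79, 7.98 and 8.75 CPM in siNGFR (log2 fold change -0.27, 95% confidence interval -0.57 to 0.02, adjusted p = 0.296).

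For KLF3, KLF5 and KLF9 the siNGFR libraries of H1299 did not move together. KLF5 had 1.30, 1.24 and 1.39 CPM in siCont and 2.18, 2.30 and 1.33 CPM in siNGFR, so that replicates 1 and 2 lay above all siCont libraries and replicate 3 among them. KLF9 had 4.06, 3.95 and 4.16 CPM in siCont and 6.19, 5.69 and 3.68 CPM in siNGFR, with replicate 3 below all siCont libraries. KLF3 had 16.6, 15.6 and 14.4 CPM in siCont and 20.3, 20.4 and 15.9 CPM in siNGFR, with replicate 3 within the siCont range. With all libraries the log2 fold changes were 0.55 for KLF5 (95% confidence interval -0.09 to 1.18, adjusted p = 0.321), 0.35 for KLF9 (interval -0.15 to 0.84, adjusted p = 0.398) and 0.27 for KLF3 (interval -0.04 to 0.59, adjusted p = 0.316). Without siNGFR replicate 3 these 3 genes were called, KLF5 at 0.76 (adjusted p = 0.0467), KLF9 at 0.55 (adjusted p = 0.0324) and KLF3 at 0.38 (adjusted p = 0.0306), while 27.9% of all genes were called in that fit. The adjusted p of these genes was otherwise up to 0.707, 0.815 and 0.704 over the 14 alternatives.

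No siNGFR library of H1299 exceeded the siCont range of KLF4. Replicates 1 and 2 of siNGFR lay below all siCont libraries for KLF4, and replicate 3 lay among them. The gene had 5.10, 6.32 and 5.03 CPM in siCont and 4.59, 4.54 and 5.16 CPM in siNGFR (log2 fold change -0.21, 95% confidence interval -0.58 to 0.17). KLF7 had 14.5, 12.4 and 14.5 CPM in siCont and 13.9 CPM in each siNGFR library (0.00, interval -0.27 to 0.27). KLF2 (0.26, interval -0.26 to 0.79), KLF6 (0.04, interval -0.26 to 0.33), KLF10 (-0.10, interval -0.41 to 0.21) and KLF11 (0.01, interval -0.33 to 0.34) overlapped between the groups.

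The responses of the lines were then compared directly by subtracting the log2 fold change in H1299 from that in H460, in a joint model of the 12 libraries. None of the 10 KLF genes passed (0 also by DESeq2), against 0.426% of 21583 genes, and 2 had an unadjusted p under 0.05 (KLF4 and KLF5), against 17% of all genes. KLF4 had a difference of 0.80 (SE 0.20, 95% confidence interval 0.37 to 1.22, adjusted p = 0.0975, edgeR), higher in H460. KLF5 had a difference of -0.95 (SE 0.30, interval -1.59 to -0.31, adjusted p = 0.150), lower in H460, and KLF9 of -0.67 (SE 0.33, interval -1.37 to 0.02, adjusted p = 0.310). The other 7 lay between -0.25 (KLF3) and 0.23 (KLF11), and the median was 0.06 for the KLF genes and -0.01 for all genes.

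Without H1299 siNGFR replicate 3, KLF4 (0.78, adjusted p = 0.0138, edgeR), KLF5 (-1.25, adjusted p = 0.00408) and KLF9 (-0.96, adjusted p = 0.0279) passed the test of the difference, in a fit that called 18% of all genes. For KLF4 the size of the difference was nearly that with all libraries, and the SE was 0.20 with all libraries and 0.21 without this one. Over the 19 alternatives the adjusted p ran from 0.0138 to 0.362 for KLF4, from 0.00408 to 0.354 for KLF5 and from 0.0279 to 0.584 for KLF9.

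**Figure D4:**
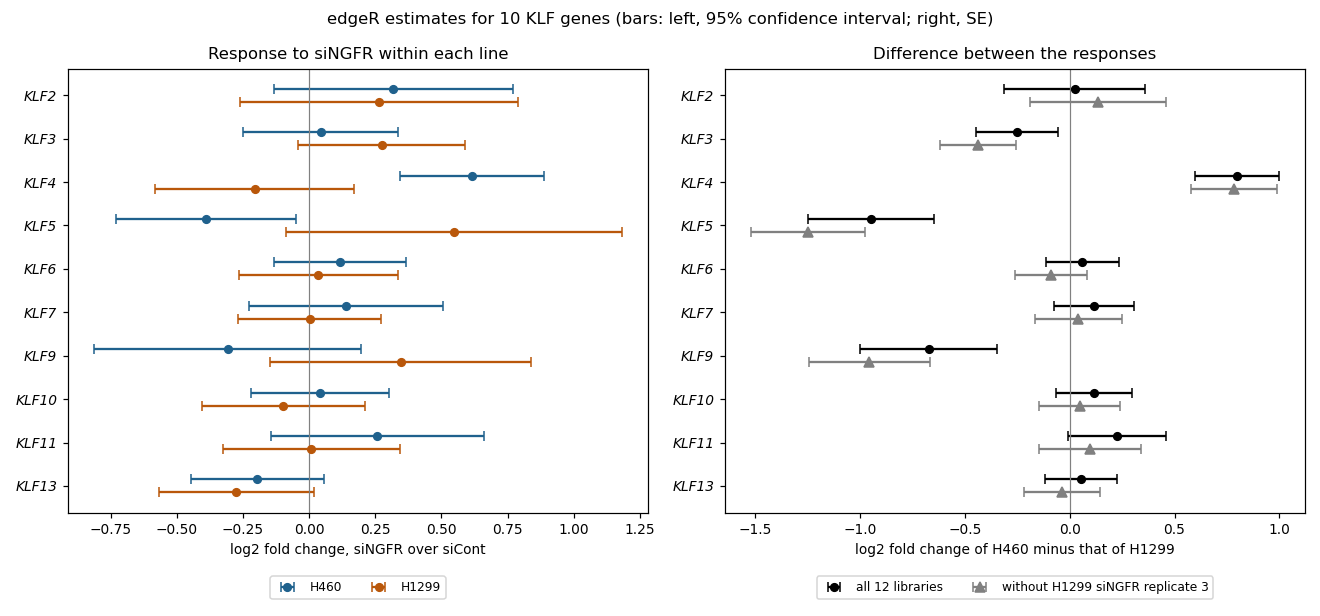
Left, log2 fold change of siNGFR over siCont for each KLF gene in H460 and in H1299 (bars, 95% confidence interval); right, the difference of the log2 fold changes, H460 minus H1299, with all 12 libraries (circles) and without H1299 siNGFR replicate 3 (triangles; bars, SE). KLF4 is at 0.62 in H460 and -0.21 in H1299, and KLF5 at -0.39 and 0.55.

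The ratio of KLF4 to KLF5 within a library, each per exon length, does not depend on the scaling between libraries. This ratio was chosen after the values were seen and is given as a description. In H460 it was 4.72, 4.19 and 4.07 in siCont and 7.36, 7.82 and 11.2 in siNGFR, so all siNGFR libraries were above all siCont libraries. In H1299 it was 4.40, 5.69 and 4.06 in siCont and 2.36, 2.21 and 4.33 in siNGFR, where replicates 1 and 2 were below all siCont libraries and replicate 3 was among them. The siCont ranges of the lines overlapped, although both genes were several-fold higher in H460. The ratio of KLF4 to KLF13 was 1.23, 1.25 and 1.25 in H460 siCont and 2.37, 1.78 and 2.43 in H460 siNGFR, and it overlapped between the groups of H1299 (1.28, 1.65 and 1.24 against 1.27, 1.54 and 1.60).

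With all libraries, no other KLF or SP gene passed the test with siNGFR. Of the other 7 KLF genes, KLF1, KLF8 and KLF17 had at most 8 counts in any library, and none was called by edgeR or DESeq2 in H460 (2 tested, 0 at an unadjusted p under 0.05), in H1299 (3 tested, 1 at an unadjusted p under 0.05) or for the difference (4 tested, 1 at an unadjusted p under 0.05). Without H1299 siNGFR replicate 3, KLF12 was called in H1299 (log2 fold change 0.64, adjusted p = 0.0297, edgeR, 1 of 3 tested against 27.9% of all genes) and for the difference (-1.23, adjusted p = 0.0103, 1 of 4 against 18%). Between the siCont groups, KLF12 (log2 difference -0.60, adjusted p = 0.0215, edgeR) and KLF16 (-0.43, adjusted p = 0.0315) were lower in H460. These were 2 of 3 tested, against 63.2% of all genes. The groups overlapped for KLF16, with 6.49 to 10.2 CPM in H460 siCont and 10.0 to 11.4 CPM in H1299 siCont. KLF12 is a CtBP-binding repressor like KLF3, and KLF16 belongs to the Sin3A-binding group. Of the 9 SP genes, which encode the closest relatives of the KLFs, none was called by edgeR or DESeq2 among 4 tested in H460 (log2 fold changes -0.31 to -0.23, median -0.27, 2 at an unadjusted p under 0.05) or 5 in H1299 (median 0.14, 1 at an unadjusted p under 0.05), nor among 5 tested for the difference (2 at an unadjusted p under 0.05). Of all genes, 19.2% in H460, 18% in H1299 and 17% for the difference had an unadjusted p under 0.05. Without H1299 siNGFR replicate 3, SP1 was called as higher in H1299 (0.53, adjusted p = 0.00443, edgeR, 1 of 6 tested against 27.9% of all genes). SP1 (-0.87) and SP3 (-0.65) were called for the difference in that fit (2 of 6 against 18% of all genes). Between the siCont groups of the lines, SP1 was higher in H460 (0.38, adjusted p = 0.00454, edgeR) and SP9 lower (-5.87, adjusted p = 2.14e-06), 2 of 5 tested against 63.2% of all genes. SP9 had at most 1 count in any H460 siCont library, so the size of its difference is not precise.

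Genes that act with or on the KLFs were also described by counts. None of 10 co-regulators (CtBP, Sin3 and histone deacetylase or acetyltransferase genes), 6 genes of the ERK5-MEF2 axis that induces KLF2 and KLF4, or 8 genes of the TGF-beta and SMAD axis that induces KLF10 and KLF11 was called with siNGFR in H460 or H1299, or for the difference between the responses, with all libraries. The same held for the ubiquitin ligase genes of KLF proteins (4 tested in each line and 5 for the difference) and for the nuclear receptors of KLF9 and their targets (5 tested in H460, 4 in H1299 and 5 for the difference). Over these 5 lists DESeq2 called 0 as well, and 8 of 33 genes in H460, 5 of 32 in H1299 and 8 of 34 for the difference had an unadjusted p under 0.05, against 19.2%, 18% and 17% of all genes. Without H1299 siNGFR replicate 3, edgeR called 8 of 32 genes in H1299, all as higher, against 27.9% of all genes in either direction. For the difference it called 10 of 35, all as lower in H460, against 18% of all genes in either direction. These shares do not bear on the direction of the calls. The 8 in H1299 were 2 of 10 co-regulators, 1 of 6 genes of the ERK5-MEF2 axis, 2 of 8 of the TGF-beta and SMAD axis (TGFB2 at 0.89 and SMAD2 at 0.56), 0 of 4 ubiquitin ligase genes and 3 of 4 nuclear receptors of KLF9 and their targets (PER1 at 0.74, NR3C1 at 0.55 and THRA at 0.49). The 10 for the difference were 4 of 8 genes of the TGF-beta and SMAD axis, 2 of 10 co-regulators and 1 of 6 of the ERK5-MEF2 axis. They also held 1 of 5 ubiquitin ligase genes and 2 of 6 nuclear receptors of KLF9 and their targets. In H460 the median log2 fold changes of these lists ran from -0.07 to 0.10, beside 0.01 for all genes. In H1299 they ran from 0.10 to 0.40, beside 0.00 for all genes, with the highest median for the nuclear receptors of KLF9 and their targets, which include PER1 (0.61).

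Between the siCont groups, 63.2% of all genes were called and these lists differed in both directions. The acetyltransferase gene EP300 was higher in H460 (log2 difference 1.84) and KAT2B (-1.83) and the histone deacetylase gene HDAC1 (-1.35) were lower, among 3 higher and 4 lower of 10 co-regulators. In the ERK5-MEF2 axis MEF2C was higher in H460 (3.13), in a list with 2 higher and 2 lower of 6. The TGF-beta receptor gene TGFBR2 (-1.75) and the ligand gene TGFB1 (-1.63) were lower in H460, among 3 higher and 3 lower of 8. Of the ubiquitin ligase genes of KLF proteins, WWP1 (-1.10) and SMURF1 (-0.64) were lower in H460 and FBXW7 (0.80) was higher, so the list had 1 higher and 2 lower of 4. The KLF proteins themselves were not measured here. Of the nuclear receptors of KLF9 and their targets, 3 of 5 were higher (THRA 1.61, TSC22D3 6.32 and FKBP5 0.70) and none was lower, where KLF9 itself was lower. TSC22D3 had at most 1 count in any H1299 siCont library, so the size of its difference is not precise.

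Of 22 genes that have been reported as KLF targets, 17 were tested in H460 and 2 were called with siNGFR, CDKN1A as higher and CCND1 as lower, against 4.32% of all genes (median log2 fold change of the list -0.21). CDKN1A, which encodes the cell cycle inhibitor p21 and is also a p53 target, had 41.3, 36.8 and 36.1 CPM in H460 siCont and 88.1, 90.6 and 110 CPM in H460 siNGFR, against 20.9, 20.6 and 19.4 CPM and 6.77, 7.82 and 14.5 CPM in the H1299 groups. CDKN1A was the only called gene of 18 tested for the difference between the responses (log2 difference 2.401, adjusted p = 0.00468, edgeR), against 0.426% of all genes. It was also the only one of 18 called without H1299 siNGFR replicate 3 (2.75, adjusted p = 2.13e-07, edgeR), against 18% of all genes. CCND1, which encodes cyclin D1 and is repressed by KLF4 in other epithelial cells, had 69.7, 60.1 and 56.3 CPM in H460 siCont and 37.1, 39.9 and 44.4 CPM in H460 siNGFR (log2 fold change -0.60, adjusted p = 0.0136). In H1299, CCND1 had 95.7, 105 and 117 CPM in siCont and 46.9, 52.0 and 91.6 CPM in siNGFR, all siNGFR libraries being lower there too (-0.74, not called), and none of 15 tested targets was called by edgeR (1 by DESeq2, 5 at an unadjusted p under 0.05, against 18% of all genes). Without siNGFR replicate 3, 6 of the 15 were called in H1299, against 27.9% of all genes, 3 as higher and 3 as lower, among them CDKN1A (-1.49, adjusted p = 1.10e-05) and CCND1 (-1.11, adjusted p = 7.90e-05). Whether a change of KLF4 bears on these genes was not tested. Between the siCont groups 8 of 18 targets were higher in H460 and 6 lower, including LGALS3 (5.34), ENG (5.34), PLAU (-4.55) and S1PR1 (-9.22). Of all genes, 63.2% were called in that comparison, 31.9% higher and 31.3% lower. S1PR1 had at most 1 count in any H460 siCont library, so the size of its difference is not precise.

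KLF4 had the smallest p of the 10 genes in the test of the difference, and the genes whose levels followed it most closely were sought among the 13959 genes whose mean count reached 50. By Pearson correlation of log2 CPM over the 12 libraries these were PAX9, PHGDH, NDRG1, IGFN1 and KBTBD6, with r of 0.994, 0.994, 0.993, 0.993 and 0.993. The difference between the lines dominates these values, and they are given as a description. PAX9, a transcription factor gene, had 10.3 ± 1.0 CPM (SD, n = 3) in H460 siCont and 15.6 ± 1.3 CPM in H460 siNGFR, against 0.758 ± 0.33 and 0.665 ± 0.057 CPM in the H1299 groups. NDRG1, a stress response gene, had 5.01 ± 0.30 and 12.4 ± 2.7 CPM in the H460 groups and at most 2 counts in any H1299 library.

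Some counts of KLF genes can include reads of other genes. KLF3 overlaps the antisense gene KLF3-AS1 by 688 bases (7 to 31 counts per library), KLF11 overlaps the antisense gene AC104794.4 by 416 bases, KLF7 holds MIR2355, KLF7-IT1 and MIR7845, and KLF13 holds the pseudogene UBE2CP4. The strand setting of the counting was not given in the sources used here, so reads of antisense partners cannot be told apart. Pseudogene copies were low, with at most 15 counts in any library for KLF2P1, 13 for KLF3P1 and 2 for KLF4P1. In bulk RNA from a culture, a lower level in every cell and fewer cells with the transcript cannot be told apart.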

How the data were processed

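RNA was sequenced from 12 samples in 4 groups of 3 that the labels call biological replicates. The authors deposited raw read counts per gene, made per the submitters' processing notes with STAR, Bowtie2 and the hg38 build, with no versions. The sources used here do not state the counting program, its strand setting or its annotation. The columns of H460 carry the numbers 4 to 6 and were mapped to their group only. Another 24 columns of values per sample (RPKM and repeated counts) were not used, nor were the authors' own EBSeq comparisons, which hold fold changes and posterior probabilities.

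Counts were analysed in R 4.3.3. In each comparison genes were kept by filterByExpr (all 10 KLF genes passed), scaled by TMM and tested over the whole table with edgeR 4.0.16 (quasi-likelihood test, two-sided), and p-values were adjusted by Benjamini-Hochberg and called under 0.05. The SE came from the F statistic, and confidence intervals are at 95%. CPM were scaled by TMM over the 12 libraries, and exon lengths came from the deposited table. A pseudocount of 0.5 was used for correlations of log2 CPM. Alternatives were DESeq2 1.42.0, RLE factors, library size as the only scaling, genes of at least 400 bases, no filter, at least 10 counts in every library, a replicate block, one fit of the 12 libraries and leaving out each replicate. The fit was tested on simulated data. Gene positions came from the GENCODE annotation of GRCh38 and promoter windows from RefSeq (GRCh38.p14).

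All 10 KLF genes are named in every group. Of 8 lists of related genes, at most 4 called genes per list and comparison were to be named by smallest p, and for the KLF gene with the smallest p for the difference, the 5 genes most alike. PER1 and some low KLF genes were named after their values were seen. The KLF genes and lists were chosen with earlier results of these data known. Libraries within each group differed beyond sampling noise (chi-square per degree of freedom 21.9 to 208), so no library was counted as a repeat of another, and the libraries held 16672164 to 36116823 counts, of which the KLF genes took 0.00798% to 0.0150%.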

Additional observations from a re-analysis of the deposited data

How the results depend on the processing

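Of 190 results for the KLF genes in the difference between the responses under alternatives, 152 kept their direction and side of the threshold, as did 125 of 140 in H460, 126 of 140 in H1299 and 126 of 130 between the lines. With library size as the only scaling, 2 KLF genes were called in H460 (0 higher and 2 lower, in place of 1 higher) and 2 for the difference (KLF5 at -1.45 and KLF9 at -1.18, both lower). Calls over all genes also rose in these fits, most of them as lower, and the KLF counts are read against those totals, given below. That scaling shifted the median of all genes by -0.32 in H460, 0.18 in H1299 and -0.50 for the difference, and turned the direction of KLF2 (-0.0058), KLF3 (-0.28), KLF6 (-0.21), KLF7 (-0.19), KLF10 (-0.29) and KLF11 (-0.079) in H460, of KLF10 (0.085) in H1299, and of KLF2 (-0.44), KLF6 (-0.43), KLF7 (-0.37), KLF10 (-0.38), KLF11 (-0.27) and KLF13 (-0.44) for the difference. None of these turned values passed the threshold. In H1299, KLF7 and KLF11 turned to -0.018 and -0.015 over genes of at least 400 bases and to -0.013 and -0.0084 where every library had to hold at least 10 counts. For the difference, KLF2 turned to -0.0060 with DESeq2 and -0.0073 with RLE factors, and KLF2, KLF6, KLF7, KLF10 and KLF13 to -0.14, -0.10, -0.045, -0.045 and -0.11 with no filter. Beyond the shift of the median, the cause was not tested.

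Leaving out each library in turn gave 0 to 1 called KLF genes in H460, 0 to 3 in H1299, 0 to 3 for the difference and 8 to 9 between the lines. Log2 fold changes that changed sign ran from -0.014 to 0.15 for KLF3 and -0.013 to 0.13 for KLF10 in H460. In H1299 they ran from -0.040 to 0.11 for KLF6, -0.067 to 0.041 for KLF7, -0.082 to 0.064 for KLF11 and -0.19 to 0.016 for KLF10. For the difference they ran from -0.15 to 0.27 for KLF2, -0.091 to 0.13 for KLF6, -0.055 to 0.13 for KLF13 and -0.060 to 0.19 for KLF10.

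Over all genes, the 360 higher and 496 lower calls of H460 became 155 and 4215 with library size as the only scaling, and 856 calls became 1482 with no filter and 461 in one fit of the 12 libraries. In H1299 the 4 calls became 163 with DESeq2, 25 with library size only, 2 over longer genes, 1904 with no filter and 108 in one fit. The 34 higher and 58 lower calls of the difference became 157 and 2885 with library size only, while 92 calls became 467 with DESeq2 and 1394 with no filter. Between the lines, 6417 higher and 6294 lower became 8056 and 4501 with library size only. Without single libraries the calls over all genes ran from 211 to 1558 in H460, 0 to 5425 in H1299 and 12 to 3955 for the difference.

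With the replicate number as a block, 1 KLF gene was called in H460 (KLF4, adjusted p = 0.0366), 0 in H1299 and 0 for the difference, and over all genes 560, 0 and 50 were called. Same-numbered libraries did not deviate together in all pairs (r of 0.0013, 0.085 and -0.022 in H460 and of 0.358, -0.238 and 0.112 in H1299), so the numbers were not taken to pair the samples. No paired analysis was possible because the siCont libraries of the lines share no numbers in the comparison of H460 with H1299. With 23 to 30 counts per siCont library of H1299, KLF5 had the widest interval of the 10 genes there.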
